A study of Mus musculus with 6 samples.

Results

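The genes described are 39 that serve protein folding in the endoplasmic reticulum (ER): its chaperones and co-chaperones, disulfide isomerases, the 2 thiol oxidases, the degradation machinery, the translocon, and the sensors and factors of the unfolded protein response. They were taken by gene symbol, among 34574 gene names represented on the arrays. No measured value entered that rule, but the genes were chosen with earlier results of these data known. The oxidases Ero1a and Ero1b carry their older names Ero1l and Ero1lb in the scanner files. Of the 39 genes, 38 had a probe without an outlier mark of the scanner software and 37 were well above background on all 6 arrays. The exceptions were Os9, whose only probe had 1 marked spot among its 10, and Derl3, which was not well above background on any array.

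RNA was measured in mProx24 cells, a proximal tubular line from the C57B6 mouse strain, on 6 one-colour arrays, 1 per condition. The conditions were triple stimuli with rapamycin, triple stimuli (high glucose, palmitate and hypoxia together), hypoxia alone, high FFAs alone (free fatty acids, given as palmitate), high glucose alone, and control. Hypoxia was 1% oxygen for 12 hours, and the high glucose, high FFAs and control arrays were at 20% oxygen. Palmitate was given at 150 µM for 9 hours, bound to 0.15% bovine serum albumin. Rapamycin, an inhibitor of the growth kinase complex mTORC1, preceded palmitate by 12 hours at 0.4 µg/ml. How much glucose was used, and in which vehicle rapamycin was dissolved, is not stated in the labels.

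The single-stimulus labels of a pair of arrays conflict. Array A is the one whose scanner file is labelled high glucose and whose values stand in the deposited value table under high FFAs. Array B carries the opposite pair of labels. Both keep these letters, and nothing is said here of which stimulus either received. The 3 arrays at 1% oxygen filled the second row of the slide and the 3 at 20% the first, so oxygen and slide row cannot be told apart.

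Proteins that enter the ER are bound by the chaperone BiP and its partners, receive disulfide bonds from isomerases that the oxidases recharge, and are sent to degradation when folding fails. When unfolded proteins accumulate, the sensors IRE1, ATF6 and PERK start the unfolded protein response, in which the factors XBP1, ATF6 and ATF4 raise the transcription of chaperone and degradation genes. In the proximal tubule this response is known to follow overload with protein, glucose, fatty acids and lack of oxygen.

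Levels below are log2 of the processed signal over the 75th percentile of its array, so 0 is the signal at that percentile, and levels of different genes are not compared. A gene was called higher or lower where 2 arrays differed at least 2-fold, a log2 difference of 1 in size. With 1 array per condition no replicate error exists and no test was possible. The only measured error is between spots: over 194 probes printed repeatedly, the log2 difference of single spots between 2 arrays had an SD of 0.11 to 0.12. All samples are of 1 cell line, and fewer cells in a given state cannot be told apart from less RNA per cell. Of 15 proximal tubule markers, 5 (Lrp2, Cubn, Aqp1, Ggt1 and Slc4a4) were above background on all 6 arrays and 8 on none, among them Slc34a1, Slc5a2 and Hnf4a. The log2 of their summed level was 3.26 in triple stimuli with rapamycin, 3.64 in triple stimuli, 4.63 in hypoxia, 3.71 on array A, 4.63 on array B and 4.49 in control, and its part in the results was not tested. Of 6 immune markers, Cd68 and Cd3e were above background on all 6 arrays and Ptprc, Adgre1 and Lyz2 on none. The log2 of their summed level was 1.00 in triple stimuli with rapamycin, 1.503 in triple stimuli, 1.09 in hypoxia, 1.81 on array A, 1.03 on array B and 0.92 in control. It was thus highest on array A and in triple stimuli, where Herpud1, Dnajb9 and Atf6 were at least 2-fold higher. In triple stimuli with rapamycin Herpud1 and Dnajb9 were also high, 1.39 and 1.49 above control, while the immune sum was 1.00. The proximal tubule sum was lowest on array A and in triple stimuli with and without rapamycin. The part of either sum in these differences was not tested. In a cell line the immune sum is given as the signal of its genes, not as a share of immune cells.

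A few of these genes moved far and most moved little. In triple stimuli, 4 of 37 were at least 2-fold higher than in control (Ero1a, Herpud1, Dnajb9 and Atf6), beside 5.08% of all 17703 genes measured, and 0 were lower, beside 1.72%. In hypoxia, 1 of 37 was higher (Ero1a), beside 4.42% of all genes, and 0 were lower, beside 0.469%. On array A, 3 of 37 were higher than in control (Herpud1, Dnajb9 and Atf6), beside 1.56% of all genes, and 0 were lower, beside 0.909%. On array B, 0 were higher and 0 lower, beside 0.31% and 0.281% of all genes. With rapamycin added to triple stimuli, 0 of 37 were higher, beside 1.95% of all genes, and 1 was lower (Ero1a), beside 2.15%.

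The direction of the smaller differences varied by comparison. Above control lay 18 of 37 members in triple stimuli (49.3% of all genes), 8 of 37 in hypoxia (48.4% of all genes), 29 of 37 on array A (48.6% of all genes) and 25 of 37 on array B (56.7% of all genes). The median log2 difference of the members was -0.00 in triple stimuli, -0.13 in hypoxia, 0.17 on array A and 0.04 on array B, where all genes had -0.01, -0.01, -0.01 and 0.02. With rapamycin 9 of 37 lay above triple stimuli alone (44.7% of all genes), with a median of -0.17 against -0.03 over all genes. These comparisons share the control or the triple stimuli array, so their counts are not independent of each other.

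**Figure D1:**
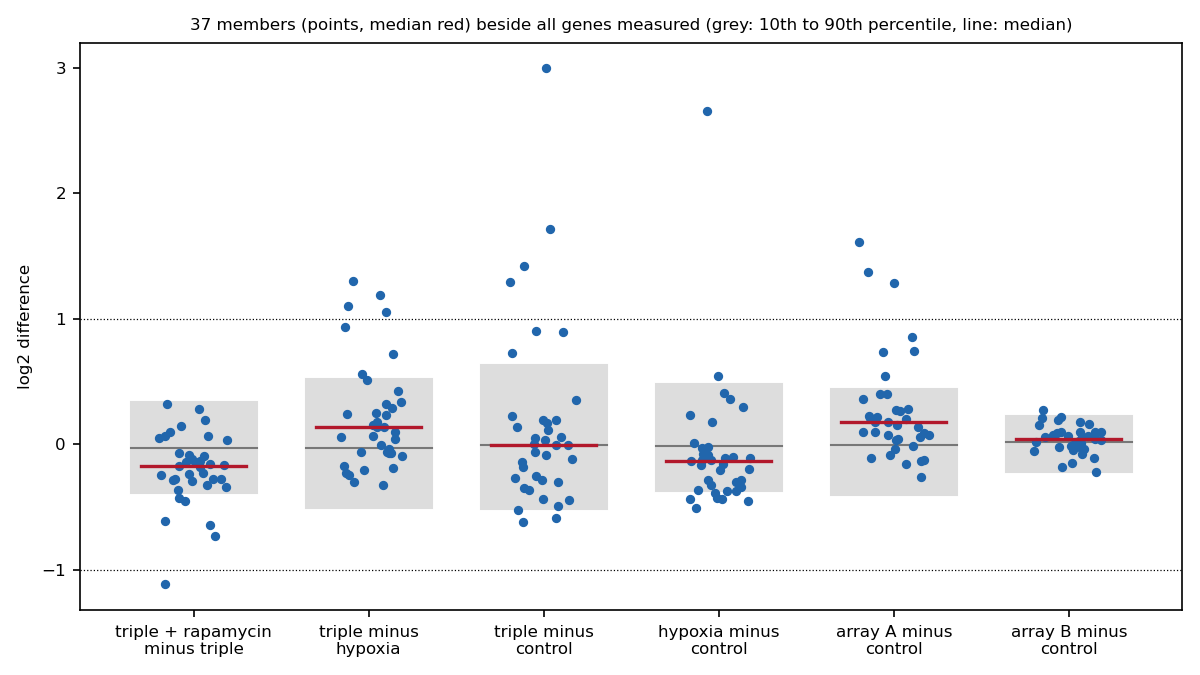
The log2 difference of each of the 37 measured genes (points) in 6 comparisons, with the median of the 37 in red, beside all genes measured (grey box from the 10th to the 90th percentile, line at the median). Ero1a is the highest point in triple stimuli (2.996) and in hypoxia (2.66) against control, and the points of array B lie between -0.22 and 0.27.

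Among the sensors and factors, all 3 members lay above control in triple stimuli and on array A. Atf6, which encodes the ER membrane protein that is cut in the Golgi to release a transcription factor, had a level of -0.49 in triple stimuli with rapamycin, -0.04 in triple stimuli, -0.98 in hypoxia, -0.06 on array A, -1.13 on array B and -1.34 in control. It was thus 2.46-fold higher in triple stimuli and 2.44-fold higher on array A than in control (log2 differences 1.30 and 1.28; probe on mm9 chromosome 1, 172635311 to 172635370). In hypoxia its difference was 0.36. With the normexp background correction the array A difference was 0.997, just under 2-fold.

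Xbp1, which encodes the factor whose RNA is spliced by IRE1, stood at 5.60 in triple stimuli with rapamycin, 5.84 in triple stimuli, 4.74 in hypoxia, 5.49 on array A, 4.98 on array B and 4.94 in control. The signal of the probe (mm9 chromosome 11, 5425816 to 5425875) was taken as total Xbp1 RNA. The place of the probe among the exons was not annotated, and splicing was not measured. The differences of Xbp1 from control were 0.90 in triple stimuli, -0.20 in hypoxia and 0.55 on array A, all under 2-fold, and triple stimuli exceeded hypoxia by 1.10. Ern1, which encodes IRE1 itself, lay at 0.67 in triple stimuli with rapamycin, 0.61 in triple stimuli, -0.11 in hypoxia, 0.56 on array A, -0.02 on array B and -0.29 in control. The highest 3 arrays were the same as for Xbp1, and the differences from control were 0.90 in triple stimuli, 0.18 in hypoxia and 0.85 on array A, under 2-fold.

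**Figure D2:**
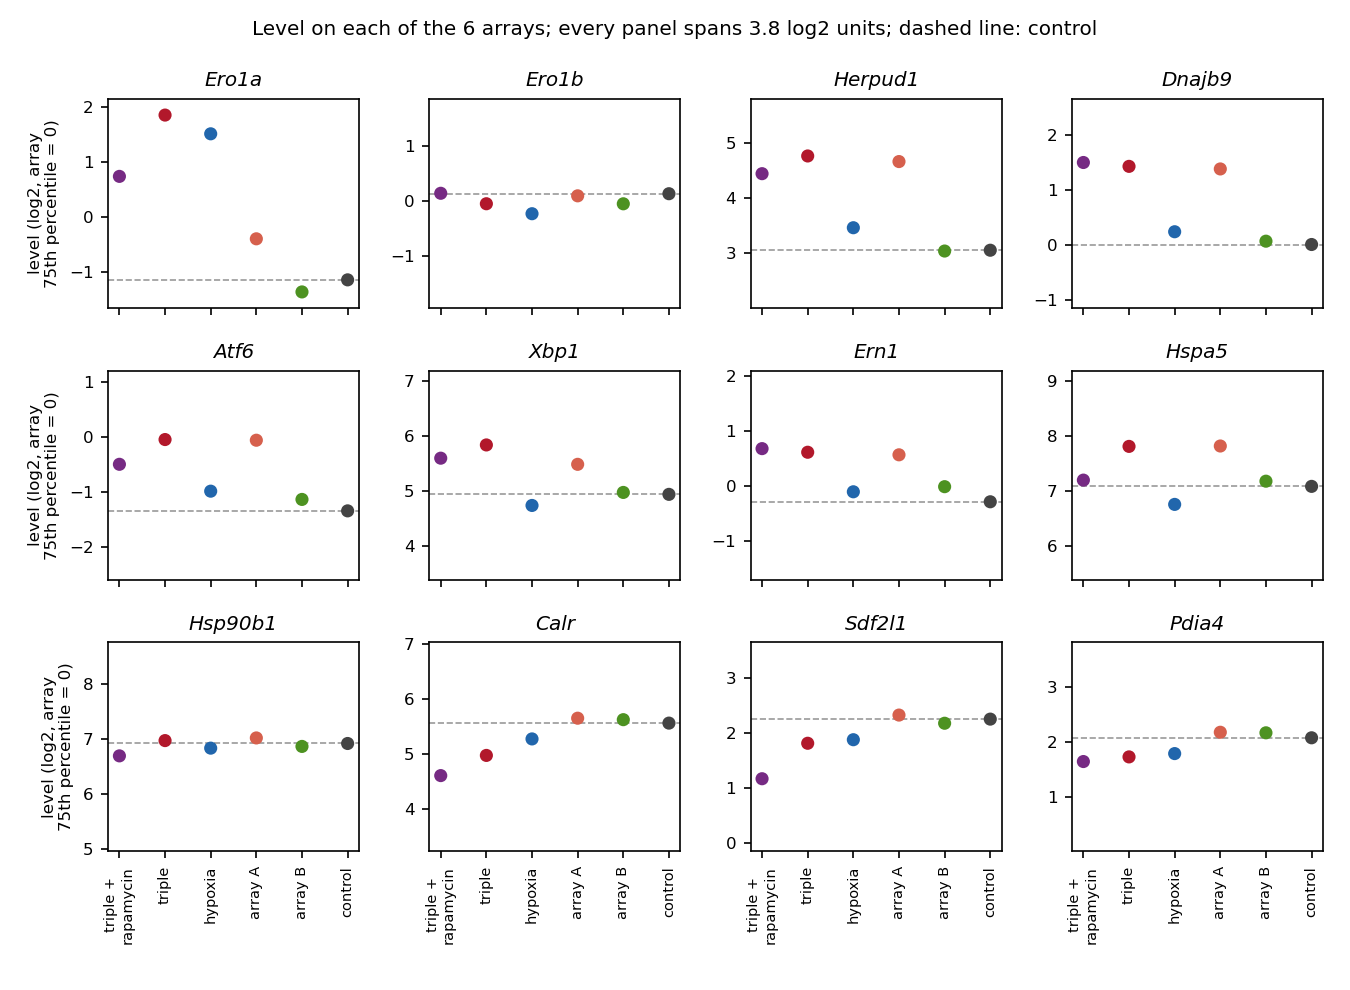
Level of 12 of the genes on each of the 6 arrays (log2 over the array's 75th percentile; 1 point per array; every panel spans the same log2 distance; dashed line at control). Herpud1, Dnajb9, Atf6, Xbp1 and Ern1 are high on the triple stimuli arrays and array A, Ero1a on the 3 arrays at 1% oxygen, and Calr and Sdf2l1 are lowest in triple stimuli with rapamycin.

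In the degradation machinery, Herpud1 stood apart from the other members. It encodes a membrane protein that organises the ligase complex of ER-associated degradation, and it had a level of 4.45 in triple stimuli with rapamycin, 4.77 in triple stimuli, 3.46 in hypoxia, 4.67 on array A, 3.04 on array B and 3.05 in control. The 3 high arrays lay at least 2-fold above control and the others did not. The log2 difference from control was 1.71 in triple stimuli (3.28-fold), 0.41 in hypoxia and 1.61 on array A (3.06-fold; probe on mm9 chromosome 8, 96919117 to 96919176). Its promoter is shown because it carried 2 stress elements other than the classical one, written 5′ to 3′ over the 250 bases before the RefSeq start (GRCm38.p6, chr8:94386179-94386428, plus strand). Capitals mark TGATGNAA, the composite element bound by ATF4 with a C/EBP partner, here on the reverse strand as TTGCATCA at 112 bases before the start, and the ER stress element II, ATTGGNCCACG, at 52.
Herpud1 promoter: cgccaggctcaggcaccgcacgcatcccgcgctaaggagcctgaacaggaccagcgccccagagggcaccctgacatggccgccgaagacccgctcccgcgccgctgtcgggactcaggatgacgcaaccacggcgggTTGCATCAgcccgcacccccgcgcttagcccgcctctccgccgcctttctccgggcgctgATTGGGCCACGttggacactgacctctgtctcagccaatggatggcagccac
The ATF4 composite element occurred in 1 of the 32 members with a promoter window and in 4.51% of all 27025 genes, and the ER stress element II in 2 of 32, Herpud1 and Dnajb11, and in 0.0444% of all genes. A match describes the letters and does not show that a factor binds there.

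The other 7 measured degradation genes differed from control by less than 2-fold in triple stimuli, hypoxia and on both single-stimulus arrays. Syvn1, the gene of the ubiquitin ligase Hrd1, had differences of 0.19 in triple stimuli, -0.37 in hypoxia and 0.18 on array A. Its adaptor gene Sel1l had -0.00, -0.07 and 0.36 in the same comparisons. Derl1 and Derl2, which encode derlins of the exit channel, had 0.20 and 0.14 in triple stimuli, -0.13 and -0.10 in hypoxia, and 0.40 and 0.22 on array A. The mannosidase-like genes Edem1 and Edem2, whose products mark glycoproteins for degradation, had 0.03 and 0.11 in triple stimuli, while Edem3 had -0.62 there and -0.39 in hypoxia. With only its marked spot left out, the lectin gene Os9 ranged from 3.73 in triple stimuli to 4.05 on array B.

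The co-chaperones split. Dnajb9, a J-domain partner of BiP that also restrains IRE1, stood at 1.503 in triple stimuli with rapamycin, 1.43 in triple stimuli, 0.24 in hypoxia, 1.39 on array A, 0.07 on array B and 0.01 in control. It was 2.68-fold higher in triple stimuli and 2.59-fold higher on array A than in control (log2 differences 1.42 and 1.37; mm9 chromosome 12, 45307313 to 45307372). A second, dimmer probe of Dnajb9 gave 1.25 in triple stimuli, 0.26 in hypoxia and 1.64 on array A. The 250 bases before its RefSeq start (GRCm38.p6, chr12:44210069-44210318, minus strand) are shown because this member moved as Herpud1 did. Unlike Herpud1, it had no match to either ER stress element or to the ATF4 composite element as spelled here, and other spellings were not sought. Capitals mark its 2 copies of CCACG on the strand printed, the part that both ER stress elements share.
Dnajb9 promoter: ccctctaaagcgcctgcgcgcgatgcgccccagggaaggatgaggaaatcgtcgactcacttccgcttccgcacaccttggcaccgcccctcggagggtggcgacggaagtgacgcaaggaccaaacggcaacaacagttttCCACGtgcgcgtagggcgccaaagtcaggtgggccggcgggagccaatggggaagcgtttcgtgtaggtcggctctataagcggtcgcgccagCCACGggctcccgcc

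The remaining co-chaperones lay lower at 1% oxygen or moved little. Dnajb11, a J-domain protein that hands clients to BiP, stood at 2.79 in triple stimuli with rapamycin, 3.02 in triple stimuli, 3.03 in hypoxia, 3.55 on array A, 3.47 on array B and 3.47 in control. Averaging in its second probe, which was below background on all 6 arrays, would turn its hypoxia difference from -0.44 into 1.10. Dnajc3, a J-domain protein known as an inhibitor of eIF2 kinases, stood at 1.37 in triple stimuli with rapamycin, 1.49 in triple stimuli, 1.56 in hypoxia, 2.21 on array A, 2.11 on array B and 2.01 in control. Sdf2l1, which binds Dnajb11 in a chaperone complex, stood at 1.17 in triple stimuli with rapamycin, 1.82 in triple stimuli, 1.88 in hypoxia, 2.33 on array A, 2.18 on array B and 2.26 in control. In these 3 genes every array at 1% oxygen lay below every array at 20%, as in 16% of all genes above background on all 6 arrays. Dnajc10, an ER reductase with a J domain, had differences from control between -0.36 in triple stimuli and 0.04 on array B. Sil1, the nucleotide exchange factor of BiP, lay 0.36 above control in triple stimuli, 0.30 in hypoxia and 0.27 on array A. Sec63, the J-domain protein of the translocon, lay 0.31 above control in triple stimuli with rapamycin and 0.23 on array A. A brighter probe of Sec63 with 1 marked spot of 10 gave 0.02 on array A from its other 9 spots. The level of that probe was 0.85 in triple stimuli with rapamycin and 0.96 in control.

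None of the Hsp70-, Hsp90- and Hsp110-class chaperones was 2-fold different from control in triple stimuli, in hypoxia or on either single-stimulus array. Hspa5, the gene of BiP, stood at 7.20 in triple stimuli with rapamycin, 7.82 in triple stimuli, 6.76 in hypoxia, 7.83 on array A, 7.19 on array B and 7.09 in control. It was 0.73 above control in triple stimuli and 0.73 on array A, and 0.33 below it in hypoxia (log2 difference -0.33), so triple stimuli exceeded hypoxia by 1.05 (2.08-fold; mm9 chromosome 2, 34631913 to 34631972). Its spot lay in row 63, within the first 64 of 384 rows, and with the median of each band of rows removed this difference was 1.08. Hsp90b1, the gene of the ER Hsp90 known as Grp94, did not follow it: its levels were 6.69 in triple stimuli with rapamycin, 6.97 in triple stimuli, 6.83 in hypoxia, 7.02 on array A, 6.86 on array B and 6.92 in control, a range of 0.33 in all. Hyou1, a large Hsp70-like exchange factor, stood at -2.36 in triple stimuli with rapamycin, -1.62 in triple stimuli, -1.38 in hypoxia, -1.33 on array A, -1.16 on array B and -1.36 in control. Its low value in triple stimuli with rapamycin was 0.73 below triple stimuli (log2 difference -0.73). Hspa13, a Hsp70-like protein of microsomes, had differences from control of 0.14, -0.14, -0.43, -0.13 and 0.07 in triple stimuli with rapamycin, triple stimuli, hypoxia, array A and array B.

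The 5 disulfide isomerases showed no 2-fold difference in any comparison made. In hypoxia 4 of them lay below control, Pdia3 at -0.30, Pdia4 at -0.29, Pdia5 at -0.34 and Pdia6 at -0.12, whereas P4hb lay above it at 0.55. P4hb encodes the classical isomerase, which is also a subunit of collagen prolyl hydroxylase, and it was the only member with its highest level in hypoxia: 4.67 in triple stimuli with rapamycin, 5.01 in triple stimuli, 5.33 in hypoxia, 4.77 on array A, 4.94 on array B and 4.78 in control. Pdia3, the isomerase that works with the lectin chaperones, stood at 3.76 in triple stimuli with rapamycin, 3.90 in triple stimuli, 4.08 in hypoxia, 4.25 on array A, 4.40 on array B and 4.39 in control. Of the lectin chaperones, which hold glycoproteins during folding, Calr stood at 4.60 in triple stimuli with rapamycin, 4.97 in triple stimuli, 5.27 in hypoxia, 5.65 on array A, 5.62 on array B and 5.56 in control. Canx, its membrane-bound counterpart, had the smallest range of the 37 genes, 0.24. For Calr the 3 arrays at 1% oxygen lay below the 3 at 20%, as for 16% of all genes above background on all 6 arrays. The lowest was triple stimuli with rapamycin.

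The 2 oxidases differed from each other. Ero1a passes electrons from the isomerases to oxygen and is a known target of hypoxia-inducible factor (HIF). It stood at 0.75 in triple stimuli with rapamycin, 1.86 in triple stimuli, 1.52 in hypoxia, -0.39 on array A, -1.35 on array B and -1.13 in control. All 3 arrays at 1% oxygen lay above all 3 at 20%, as for 9.93% of all genes above background on every array. The gap between the nearest values was 1.14, and array A lay above the other arrays at 20% oxygen. Against control it was 7.98-fold higher in triple stimuli (log2 difference 2.996) and 6.30-fold higher in hypoxia (2.66), and on array A the difference was 0.75. With rapamycin it was 2.17-fold lower than in triple stimuli alone (-1.11; mm9 chromosome 14, 45904192 to 45904251), which still left it 1.88 above control. With the normexp background correction the rapamycin difference was -0.97, under 2-fold. Ero1b, the second oxidase, stood at 0.15 in triple stimuli with rapamycin, -0.04 in triple stimuli, -0.23 in hypoxia, 0.10 on array A, -0.05 on array B and 0.14 in control, a range of 0.37. Its log2 difference from control was -0.18 in triple stimuli and -0.36 in hypoxia.

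The Ero1a promoter is shown because the gene had the largest range of the 37, 3.22. The 250 bases before its RefSeq start (GRCm38.p6, chr14:45318573-45318822, minus strand) held the core of the HIF binding site, ACGTG or GCGTG on either strand, at 128, 88 and 63 bases before the start. These are in capitals, the last of them as CACGT, which is ACGTG on the other strand. The second one overlaps CCACG on the reverse strand.
Ero1a promoter: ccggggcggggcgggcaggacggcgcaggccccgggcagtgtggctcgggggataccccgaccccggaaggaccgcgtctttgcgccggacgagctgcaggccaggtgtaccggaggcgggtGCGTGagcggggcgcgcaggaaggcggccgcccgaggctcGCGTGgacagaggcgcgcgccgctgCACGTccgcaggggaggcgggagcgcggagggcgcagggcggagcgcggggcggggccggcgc
The core is common: 26 of 32 members and 46.7% of all genes held at least 1 copy in the window from 250 bases before to 50 after the start.

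**Figure D3:**
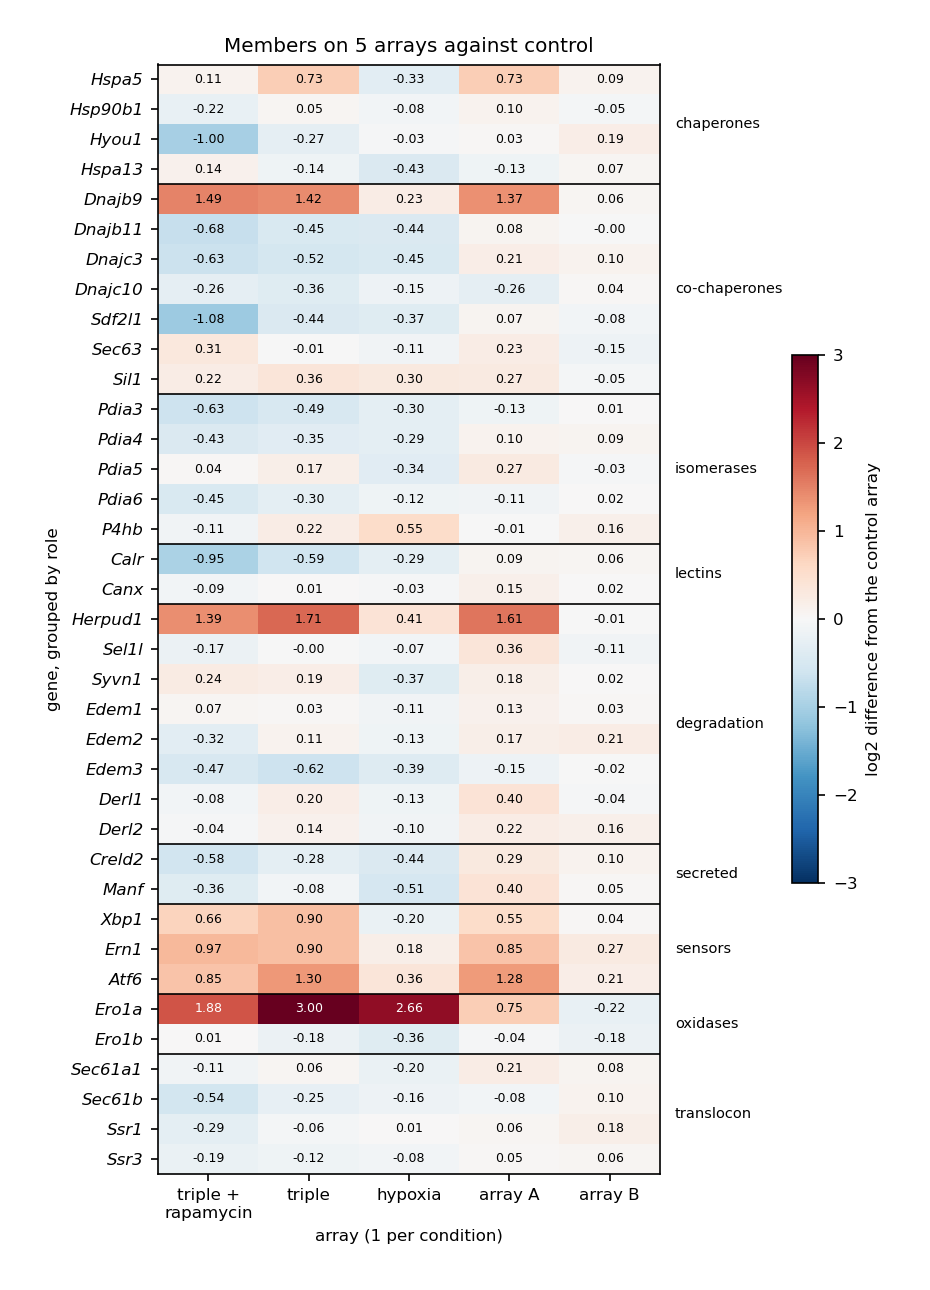
Log2 difference from control of the 37 measured genes, grouped by role (rows), on the other 5 arrays (columns), with red above and blue below control. The largest values stand in the row of Ero1a (1.88 in triple stimuli with rapamycin, 2.996 in triple stimuli, 2.66 in hypoxia), and the lowest is Sdf2l1 in triple stimuli with rapamycin, -1.08.

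The secreted members and the translocon showed no 2-fold difference in the comparisons made. Manf, which encodes a secreted trophic factor of the ER, stood at 2.45 in triple stimuli with rapamycin, 2.73 in triple stimuli, 2.30 in hypoxia, 3.21 on array A, 2.86 on array B and 2.81 in control. Creld2, a secreted protein with isomerase-like activity, stood at 5.37 in triple stimuli with rapamycin, 5.66 in triple stimuli, 5.51 in hypoxia, 6.23 on array A, 6.04 on array B and 5.95 in control. Both had their highest level on array A and their lowest levels on the arrays at 1% oxygen. All arrays at 1% oxygen lay lowest for 16% of all genes above background on every array. Sec61a1, the pore of the translocon, had a range of 0.41 and Sec61b, a small subunit of it, one of 0.64. Ssr1 and Ssr3, subunits of the translocon-associated complex, had ranges of 0.47 and 0.25.

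Set by oxygen, the arrays separated more of these genes downwards than upwards. For 13 of 37 every array at 1% oxygen lay below every array at 20%, beside 16% of all 14991 genes above background on all 6 arrays. These were Hyou1, Dnajb11, Dnajc3, Sdf2l1, Pdia3, Pdia4, Pdia6, Calr, Edem3, Creld2, Manf, Sec61b and Ssr3. The mean over the 3 arrays at 1% oxygen minus that over the 3 at 20% was between -0.66 for Calr and -0.16 for Ssr3, so each was under 2-fold. For 1 of 37, Ero1a, the order was the other way, beside 9.93% of all genes. The 13 gaps ran from 0.01 for Pdia6 to 0.45 for Dnajc3, and those of Hyou1, Pdia6, Manf, Sec61b and Ssr3 were below the spread between spots. Dimmer probes of Sec61b and Ssr3, also above background on all 6 arrays, did not separate by oxygen. A Sec61b probe had 4.66 in hypoxia and 4.64 on array A, and the Ssr3 probe 2.47 in triple stimuli and 2.44 in control. The 3 arrays at 1% oxygen also share the slide row, and the part of the row in these values cannot be told apart from that of oxygen.

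Triple stimuli against hypoxia compares arrays at 1% oxygen that lie on the same slide row. The added agents were high glucose and palmitate with its albumin carrier, and no albumin is listed for hypoxia alone. Of 37 members 4 were at least 2-fold higher in triple stimuli, Herpud1 by 1.30, Dnajb9 by 1.19, Xbp1 by 1.10 and Hspa5 by 1.05, beside 3.5% of all genes. None of the 37 was at least 2-fold lower, beside 3.03% of all genes. With the normexp background correction Dnajb9 came to 0.98, under 2-fold. Below the threshold followed Atf6 at 0.94 and Ern1 at 0.72. Above 0 lay 23 of 37 (46.5% of all genes), with a median of 0.14 against -0.03 over all genes.

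This comparison shares no array with array A against control, which was made at 20% oxygen. Across the 37 members the differences of both comparisons had a Pearson r of 0.862 and a Spearman rho of 0.801, and 27 of 37 had the same sign. Over the 16180 genes measured in both, r was 0.567 and rho 0.564, and 11513 of them had the same sign. The share with the same sign was thus similar in the members and in all genes. Without the 6 members furthest above control on array A, r over the other 31 was 0.694. These are correlations across genes, which are not independent replicates, and either label of array A names a stimulus that triple stimuli also contained.

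**Figure D4:**
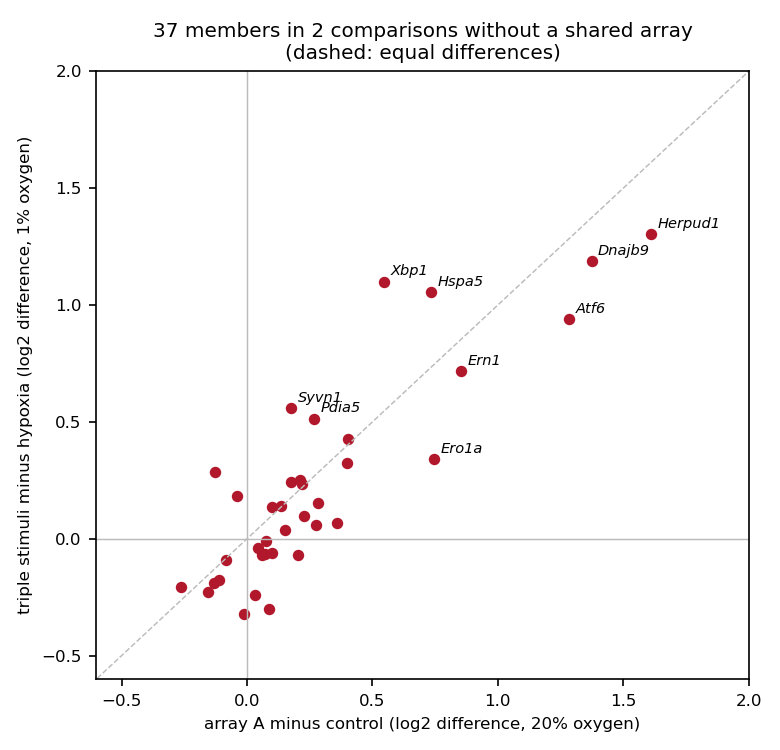
Each of the 37 genes by its log2 difference in triple stimuli against hypoxia (vertical axis, both arrays at 1% oxygen) and on array A against control (horizontal axis, both arrays at 20% oxygen), with the dashed line at equal differences. Herpud1, Dnajb9 and Atf6 lie furthest to the right, Xbp1 and Hspa5 lie above the line, and Ero1a lies below it, at 0.34 and 0.75.

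The triple stimuli difference was set beside the sum of the differences in hypoxia, on array A and on array B, a sum in which the control array enters 3 times. For Ero1a the sum was 3.18 and triple stimuli fell 0.19 short of it. Triple stimuli lay furthest above the sum for Xbp1, by 0.52, and Ero1b, by 0.40. It lay furthest below for Atf6 (-0.55), Hyou1 (-0.47), P4hb (-0.47) and Calr (-0.45). For Herpud1 and Dnajb9 the shortfalls were -0.29 and -0.25.

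Rapamycin was compared with triple stimuli alone. Besides Ero1a, the lowest differences were Hyou1 at -0.73, Sdf2l1 at -0.64, Hspa5 at -0.61 and Atf6 at -0.45. Set against control, triple stimuli with rapamycin still stood high for several of these genes: Dnajb9 was 1.49 above control, Herpud1 1.39, Ern1 0.97, Atf6 0.85 and Xbp1 0.66, while Hspa5 was 0.11 above it. The highest differences from triple stimuli alone were Sec63 at 0.32 and Hspa13 at 0.28. Other probes of these genes gave less: 0.12 for the brighter Sec63 probe without its marked spot, and -0.04 for a dimmer Hspa13 probe. Of the 37 members, 17 had their lowest level of the 6 arrays in triple stimuli with rapamycin, where 26.5% of all genes had theirs, and 6 their highest, where 14.8% of all genes had theirs.

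Over all 6 arrays, 9 of the 37 members spanned at least 2-fold (Ero1a, Herpud1, Dnajb9, Atf6, Hyou1, Sdf2l1, Xbp1, Hspa5 and Calr), where 11.5% of all genes did. The median range was 0.61 for the members and 0.50 for all genes. Array A held the highest level of 16 members and the lowest of 0, where 16.7% and 13.2% of all genes had theirs.

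Promoter windows from RefSeq (GRCm38.p6) were matched for 32 of the 39 members. The classical ER stress element, CCAAT and CCACG with 9 bases between them, was sought on both strands because ATF6 and XBP1 act through it together with the CCAAT-binding factor NF-Y. It was found in 10 of 32 members and in 0.137% of all 27025 genes with a window, 37 genes in all. The 10 were Hspa5, Hsp90b1, Dnajc3, Pdia6, Calr, Canx, Syvn1, Derl3, Creld2 and Ero1b. The window of Hspa5 is shown in full (chr2:34771840-34772089, plus strand, 250 bases before the start), with the whole element, 65 bases before the start, in capitals.
Hspa5 promoter: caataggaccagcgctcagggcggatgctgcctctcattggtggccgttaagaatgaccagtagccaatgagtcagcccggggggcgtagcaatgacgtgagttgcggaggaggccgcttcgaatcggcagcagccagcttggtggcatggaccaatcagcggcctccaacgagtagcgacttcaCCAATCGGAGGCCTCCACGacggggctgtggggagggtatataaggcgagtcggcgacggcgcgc
The elements of 5 members follow, each read in the direction CCAAT to CCACG with both ends in capitals, to show how the same ends stood before genes whose levels differed in course (Hspa5 and Calr) and before genes of small range (Hsp90b1, which had 2 copies, Canx and Ero1b). They lie at chr2:34772025-34772043 on the plus strand (Hspa5), chr10:86705638-86705656 on the minus strand and chr10:86705533-86705551 on the plus strand (Hsp90b1), chr8:84847075-84847093 on the plus strand (Calr), chr11:50325800-50325818 on the minus strand (Canx) and chr13:12565682-12565700 on the minus strand (Ero1b).
Hspa5 element: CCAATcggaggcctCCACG
Hsp90b1 element further from the start: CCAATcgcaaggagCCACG
Hsp90b1 element nearer the start: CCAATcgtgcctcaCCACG
Calr element: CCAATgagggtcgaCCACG
Canx element: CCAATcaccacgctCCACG
Ero1b element: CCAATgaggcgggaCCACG
The 9 measured genes with the classical element all lay below control in hypoxia, with a median of -0.33, and 29 of all 37 members lay below it too. Their median was -0.18 in triple stimuli and 0.15 on array A, and none of the 9 was 2-fold different from control there. The 19 measured members with a window but neither ER stress element had medians of -0.00, -0.11 and 0.13 in triple stimuli, hypoxia and array A. The parts of the element were common: CCAAT stood in 24 of 32 members and 41.1% of all genes, and CCACG in 28 of 32 and 35.5%. The unfolded protein response element was sought only as TGACGTGG, which was in 0 of 32 members and 0.714% of all genes. Other spellings were not sought, such as the TGACGTGA in the Hspa5 window above. Matches of ACGTG overlap those of CCACG wherever CCACGTG occurs.

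Other genes of the pathway were taken from lists. The first list held signalling genes of the unfolded protein and integrated stress responses. In triple stimuli 8 of 25 measured were at least 2-fold higher, beside 5.08% of all genes. In hypoxia 2 of 25 were higher, beside 4.42%, and on array A 6 of 26, beside 1.56%. In each of these 0 were lower, beside 1.72%, 0.469% and 0.909% of all genes. In triple stimuli against hypoxia 6 of 25 were higher, beside 3.5% of all genes. On array B 0 passed in either direction, beside 0.31% higher and 0.281% lower of all genes. With rapamycin 0 passed too, beside 1.95% and 2.15%. Atf3, a stress-induced transcription factor, had log2 differences of 3.66 in triple stimuli, 0.59 in hypoxia and 2.99 on array A. Trib3, a pseudokinase induced by ATF4, had 2.72, 1.19 and 2.30 in the same comparisons, and Ddit3, the factor known as CHOP, had 2.95, 2.02 and 2.83. Trib3 and Ddit3 were the 2 that passed in hypoxia.

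ER folding genes outside the members stayed mostly within 2-fold. Of 39 measured, 0 were higher and 1 lower in triple stimuli (Fkbp14, a prolyl isomerase, at -1.46), beside 5.08% and 1.72% of all genes. In hypoxia, where 4.42% of all genes were higher and 0.469% lower, 1 of 39 was higher and 0 lower. It was Uggt2, a glucosyltransferase of the folding check, at 2.55; its level was -2.68 in triple stimuli with rapamycin, -3.36 in triple stimuli, 0.17 in hypoxia, -2.55 on array A, -2.74 on array B and -2.39 in control. It was high on the hypoxia array alone. In triple stimuli against hypoxia the 2 lower genes were Uggt2 at -3.25, a bound, since its probe was not well above background in triple stimuli, and Fkbp14 at -1.25, with its spot in row 41. Over all genes 3.03% were lower in that comparison. On array A 1 of 40 was higher, beside 1.56% of all genes. This was Fkbp11 at 1.02, a bound too, since its probe was above background on that array alone.

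Of 31 measured degradation genes outside the members, 0 were 2-fold different from control in triple stimuli, in hypoxia or on array A. Over all genes, 5.08%, 4.42% and 1.56% were higher in these comparisons and 1.72%, 0.469% and 0.909% lower. In triple stimuli against hypoxia 1 of 31 was at least 2-fold higher and 0 lower, beside 3.5% and 3.03% of all genes. This was Ube2g2, which encodes a ubiquitin-conjugating enzyme of the pathway, at 1.09, with its spot in row 58. Selenos and Svip, which encode partners of the extraction ATPase p97, followed in range: Selenos had -0.06 in triple stimuli and -0.66 in hypoxia, and Svip was 0.99 lower with rapamycin (log2 difference -0.99). Of 42 genes of the translocon, signal peptidase and N-glycosylation, 0 passed against control in triple stimuli, hypoxia or on array A. The same shares of all genes stand beside this. In triple stimuli against hypoxia 1 of 41 measured was higher and 0 lower, beside 3.5% and 3.03% of all genes. This was Gnpnat1, an enzyme of amino sugar synthesis, at 1.06. Tram1, a translocon protein, had -0.75 in triple stimuli, and Alg8, a glucosyltransferase of N-glycan assembly, had -0.55 in hypoxia.

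As a check of the 1% oxygen label, 12 of 15 listed HIF targets were at least 2-fold higher in triple stimuli and 13 of 15 in hypoxia, a list that includes Ero1a. Over all genes 5.08% and 4.42% were higher. Egln3 (4.25 and 4.37), Ak4 (4.32 and 4.59) and Ankrd37 (3.29 and 3.92) had the largest ranges, each pair giving triple stimuli and then hypoxia. Those of Egln3 are bounds, since it was above background on the 3 arrays at 1% oxygen only. With rapamycin 1 of the 15 was 2-fold lower than in triple stimuli alone, Ero1a, beside 2.15% of all genes. Smaller differences mostly had the same direction: 13 of the 15 lay below triple stimuli alone and 2 above, where 44.7% of all genes lay above. The median of the 15 was -0.42, against -0.03 over all genes. On array A, 3 of 14 measured were higher, Ndrg1 at 1.35, Ak4 at 1.29 and Vegfa at 1.11, beside 1.56% of all genes.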

How the data were processed

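Total RNA of 6 conditions was labelled with Cy3 and hybridised to Agilent arrays, 1 per condition. The authors read the scans with Agilent Feature Extraction 10.7.3.1, per the submitters' processing notes. The deposited signal is a linear, background-subtracted intensity of each spot, not scaled across arrays, per the file headers. In the deposited value table that intensity stands as a ratio to the array's 75th percentile, as read from its values: each column matched 1 array with an SD of the log2 difference of 2.88e-07 to 2.91e-07, and its direction, scale and lack of centring follow from that match. The column medians were 0.0561 in triple stimuli with rapamycin, 0.0544 in triple stimuli, 0.0562 in hypoxia, 0.0535 for array A, 0.0516 for array B and 0.0505 in control. The deposited scanner files' own call of well above background was used as given.

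From each spot's log2 signal that of the array's 75th percentile (59305 non-control spots) was subtracted, and repeated spots were averaged. Of 55681 probes, 323 with an outlier mark on any array were left out, and the brightest probe represented each gene. A comparison used genes called well above background on either array, with a dim side raised to the lowest such level. Above background were 40.3% to 43.8% of spots per array, with 0 saturated, and the number of arrays limits the precision. The member genes and the other lists were chosen with earlier results of these data known, and the comparison of the 2 sets of oxygen arrays, the ER stress element II, the ATF4 composite element and the rule that drops marked spots only were added after seeing the data. Named were all 39 members, the 3 genes of each list with the largest range, and genes 2-fold different where a count was 5 or fewer. Probe positions are on mm9 as the files give them, and promoters and motifs on GRCm38.p6. The code for 2-fold calling was run on simulated arrays with known differences above the threshold and only the spread between spots added. Such arrays cannot show the error between real arrays. Alternatives were another probe rule, quantile and median scaling, normexp (limma 3.58.1), the value table, bands of spot rows, other filters and a 1.5-fold threshold. Python 3.11.15 and R 4.3.3 were used.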

Additional observations from a re-analysis of the deposited data

Results flagged for a closer look

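A dimmer probe of Ern1, not used for the gene's level, was well above background on array A alone. Its log2 difference from control there was 0.34, beside 0.85 for the brighter probe that represents Ern1. Groups of 1 array allow no search for an outlying sample, and no difference between groups could be tested.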

How the results depend on the processing

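No paired analysis was possible because each condition had 1 array. Of the counts and medians recomputed under the alternatives, 180 kept their value within 1.5 times or the spread between spots and 8 did not, and no called difference turned its sign. With the mean of all probes, 2 members were higher in hypoxia and 1 was lower in triple stimuli than in hypoxia, since a probe of Dnajb11 that is below background on all 6 arrays then entered (1.10 and -1.02). With normexp, 0 members were lower with rapamycin, as Ero1a came to -0.97, Atf6 on array A to 1.00, just under the threshold, and Dnajb9 in triple stimuli against hypoxia to 0.98. The cause was not tested. At a 1.5-fold threshold, 7 members were higher and 2 lower in triple stimuli (11% and 7.68% of all genes), 4 lower with rapamycin (4.95%) and 6 higher on array A (5.83%). With quantile scaling, 2 members had all arrays at 1% oxygen above those at 20%, beside 1604 of 14991 genes, a larger share, and over the 7 alternatives to which this comparison applies, 11 to 14 members had them below, beside 13.3% to 17.6% of all genes. Over 9 alternatives the difference of Ero1a ran from 2.44 to 3.02 in triple stimuli and from 2.16 to 2.69 in hypoxia. The shares of all genes called depend on the filter: in triple stimuli 5.08% were higher, against 3.11% with both arrays above background, 7.17% with no filter and 2.86% with normexp, and in hypoxia 4.42%, against 2.5%, 6.77% and 2.76%. The corresponding shares on array A were 1.56%, 1.24%, 4.91% and 0.796%, on array B 0.31%, 0.118%, 3.79% and 0.0804%, and lower with rapamycin 2.15%, 0.57%, 4.16% and 0.961%. In triple stimuli against hypoxia they were 3.5%, 2%, 4.46% and 1.84% higher.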
